A study of Ovis aries with 20 samples.

Results

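The trachea of fetal sheep with cystic fibrosis (CF) was compared with that of normal (WT) sheep at day 100. Libraries were chosen by the genotype and age in their titles, which gave 4 of the 20 RNA sequencing libraries of the series, 2 of CF animals (labelled CF donors) and 2 of WT animals (labelled healthy donors). All 4 were made from total RNA of frozen trachea at day 100, an age before birth, which the labels place at day 147. The other libraries came from days 65, 80, 120 and 147, and the 8 of days 80 and 120 (2 of each genotype at each age) served as the neighbouring ages. The series follows the airway of CF sheep through gestation. The CFTR alleles of the CF animals, the sexes and the number of animals behind the libraries are not stated in the labels.

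CFTR is a channel that carries chloride and bicarbonate across the apical face of airway epithelial cells, and its loss causes CF. The tracheal wall is made of that epithelium, with basal, secretory and multiciliated cells, and of a stroma of fibroblasts and collagen, vessels, nerves, smooth muscle and cartilage. In the developing airway the epithelium sends Hedgehog ligand to the stroma, and the stroma answers with growth factors of the FGF, BMP and TGF-beta families, so the RNA of a piece of trachea carries both sides.

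The sample identifiers bear on every comparison. Both WT day 100 libraries carry 1 identifier, CF day 100 replicate 2 carries the identifier of WT day 65 replicate 2, and nothing in the labels says that the replicates of a group are separate animals. The p-values therefore measure the spread between libraries of a group, which may be technical. That spread was estimated over all 20 libraries of the series and not from the day 100 libraries alone. The total was 59189886 and 61903223 counts in the CF day 100 libraries, 58989742 and 87651829 in the WT day 100 libraries, and between 42372433 and 87651829 over the series. Levels are given as CPM, counts relative to the library size after TMM scaling, which do not correct for gene length, and differences as log2 fold changes with their SE. Lists of thyroid, thymus, skeletal muscle, erythroid and lymphocyte genes each took at most 0.031% of the counts in the 4 day 100 libraries. Of the neighbouring libraries, WT day 80 replicate 2 and CF day 80 replicate 1 are among 4 of the series that held RNA of other tissue, and fits without these 4 were also run. Ribosomal protein genes took 8.11% and 8.92% of the counts in CF, against 16.1% and 13.2% of them in WT. Log2 CPM, taken relative to each gene's mean over the 20 libraries, was also regressed on log2 gene length. The slope was 0.0688 and 0.0709 in CF libraries, against -0.146 and -0.0993 in WT libraries. Its sign is therefore relative to the mean of the series.

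The gene whose loss causes CF was transcribed in both genotypes. CFTR, which the count tables place on chromosome 4 from 50644000 to 50864925 (genome build not given in the sources used here), stood at 19.9 and 17.4 CPM in CF and at 25.4 and 31.0 CPM in WT. The groups did not overlap, as was so for 70.6% of all genes tested, and the log2 fold change of -0.59 ± 0.47 did not pass (edgeR quasi-likelihood test, BH-adjusted p = 0.587). Reads summed over a gene cannot reveal a small change in its sequence, so these levels are no check of the genotype labels.

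The labels call the tissue epithelial, and epithelial and stromal genes were both present in the 4 libraries. EPCAM, an adhesion molecule of epithelia, was at 174 and 173 CPM in CF and at 285 and 305 CPM in WT. KRT5, a keratin of basal cells, was at 586 and 680 CPM in CF and at 1147 and 897 CPM in WT, and FOXJ1, the regulator of multiciliated cells, at 520 and 384 CPM in CF and at 734 and 639 CPM in WT. The differences in EPCAM, KRT5 and FOXJ1 did not pass (edgeR quasi-likelihood test, BH-adjusted p of 0.455, 0.622 and 0.695). A list of 54 fibroblast and matrix genes took 5.70% and 5.55% of all counts in CF, against 1.00% and 0.817% in WT. In bulk tissue, fewer cells of a type and less RNA per cell cannot be told apart.

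Genes of fibroblasts and collagen matrix had more RNA in CF than in WT trachea at day 100, and with them single genes of vessels, Schwann cells, macrophages and Hedgehog and TGF-beta signalling. The few genes that had less were led by TRIM7 and by PIGR and FCGBP, which are made by secretory epithelium. PIGR and FCGBP were 2 of 26 secretory and goblet genes tested. In all, 282 of 20097 genes tested (1.40%) were higher and 12 (0.0597%) lower in CF (edgeR quasi-likelihood test, Benjamini-Hochberg adjusted p under 0.05). The median log2 fold change over all genes was 0.12, and it was 2.40 over the 282 and -2.43 over the 12. Of the 282 genes, 55 were members of the 40 gene lists described here and 227 of none. All 294 genes kept their direction with the WT pair summed to 1 sample. That sample holds the same reads, so this outcome was nearly fixed in advance. The count of passing genes depended on the WT pair. It was 0 without WT replicate 2 (1629 at unadjusted p under 0.05), 39 without WT replicate 1, 92 without CF replicate 1 and 60 without CF replicate 2, and DESeq2 called 1210.

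**Figure D1:**
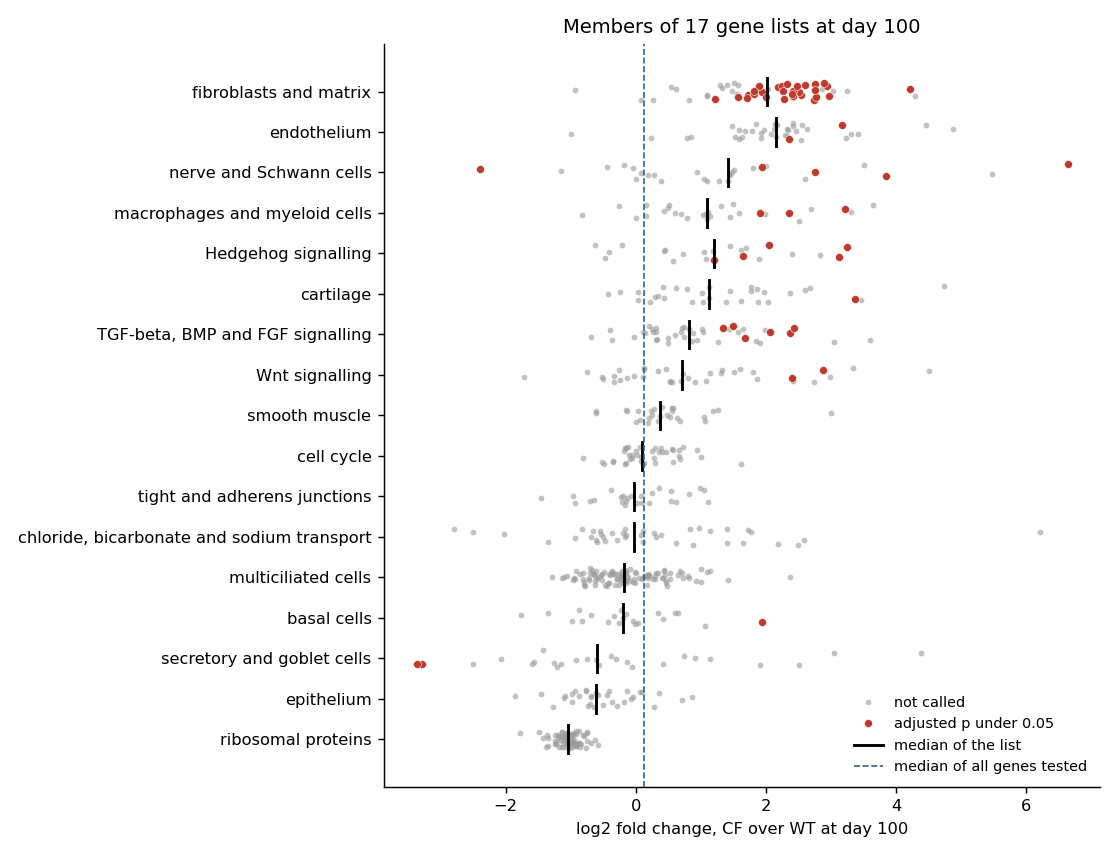
Log2 fold change of CF over WT at day 100 (x axis) for the members of 17 gene lists (rows); each point is a gene, red where its adjusted p was under 0.05, the black bar is the list's median and the dashed line the median of all genes, 0.12. Fibroblast and endothelial genes lie to the right, with medians of 2.02 and 2.15, and epithelial genes to the left, with a median of -0.61; the PHOX2A point at 6.64 is a fitted value of a gene with no counts in WT.

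Of the 54 fibroblast and matrix genes, all tested, 29 rose in CF and none fell, with a median of 2.02. COL1A1 and COL1A2 encode the chains of type I collagen, the main fibre of the stroma. COL1A1 was at 12489 and 11361 CPM in CF, against 681 and 599 CPM in WT. Both CF libraries were far above both WT libraries, a log2 fold change of 4.22 ± 0.54 (edgeR quasi-likelihood test, BH-adjusted p = 0.00425). Its adjusted p was 0.0574 without WT replicate 1 and 0.114 without WT replicate 2 (edgeR), with log2 fold changes of 4.21 and 4.05. COL1A1 lies on chromosome 11 from 35945920 to 35962445. COL1A2 was at 10656 and 10982 CPM in CF and at 1929 and 1265 CPM in WT (2.76 ± 0.44), and COL3A1, the type III chain, at 10246 and 9193 CPM in CF and at 2591 and 1695 CPM in WT (2.18 ± 0.43). Of the 54 genes, 51 had both CF libraries above both WT libraries, and over all genes the groups did not overlap for 70.6%.

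COL6A1, a chain of the beaded type VI collagen, was at 519 and 571 CPM in CF and at 103 and 76.6 CPM in WT (2.60 ± 0.30, BH-adjusted p = 0.00349, edgeR quasi-likelihood test). POSTN, a matrix protein that binds collagen, was at 2038 and 1922 CPM in CF and at 337 and 196 CPM in WT. COL12A1, a collagen that coats fibrils, was at 212 and 208 CPM in CF and at 36.4 and 18.1 CPM in WT. PDGFRA, a growth factor receptor of fibroblasts and their precursors, was at 79.1 and 93.8 CPM in CF and at 16.5 and 18.0 CPM in WT (2.32 ± 0.30). SFRP2, a secreted Wnt modulator of fibroblasts, was at 126 and 131 CPM in CF and at 15.3 and 17.3 CPM in WT (2.98 ± 0.35). All of these genes passed, and in each the lowest CF library was above the highest WT library. With 1 library left out in turn, 3 of the fibroblast genes passed without WT replicate 1, none without WT replicate 2, 16 without CF replicate 1 and 8 without CF replicate 2. Without the 4 libraries that held other tissue 25 passed, and COL3A1 and COL12A1 were among those lost. With the length slope as a covariate 40 of them passed, and DESeq2 called 41.

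**Figure D2:**
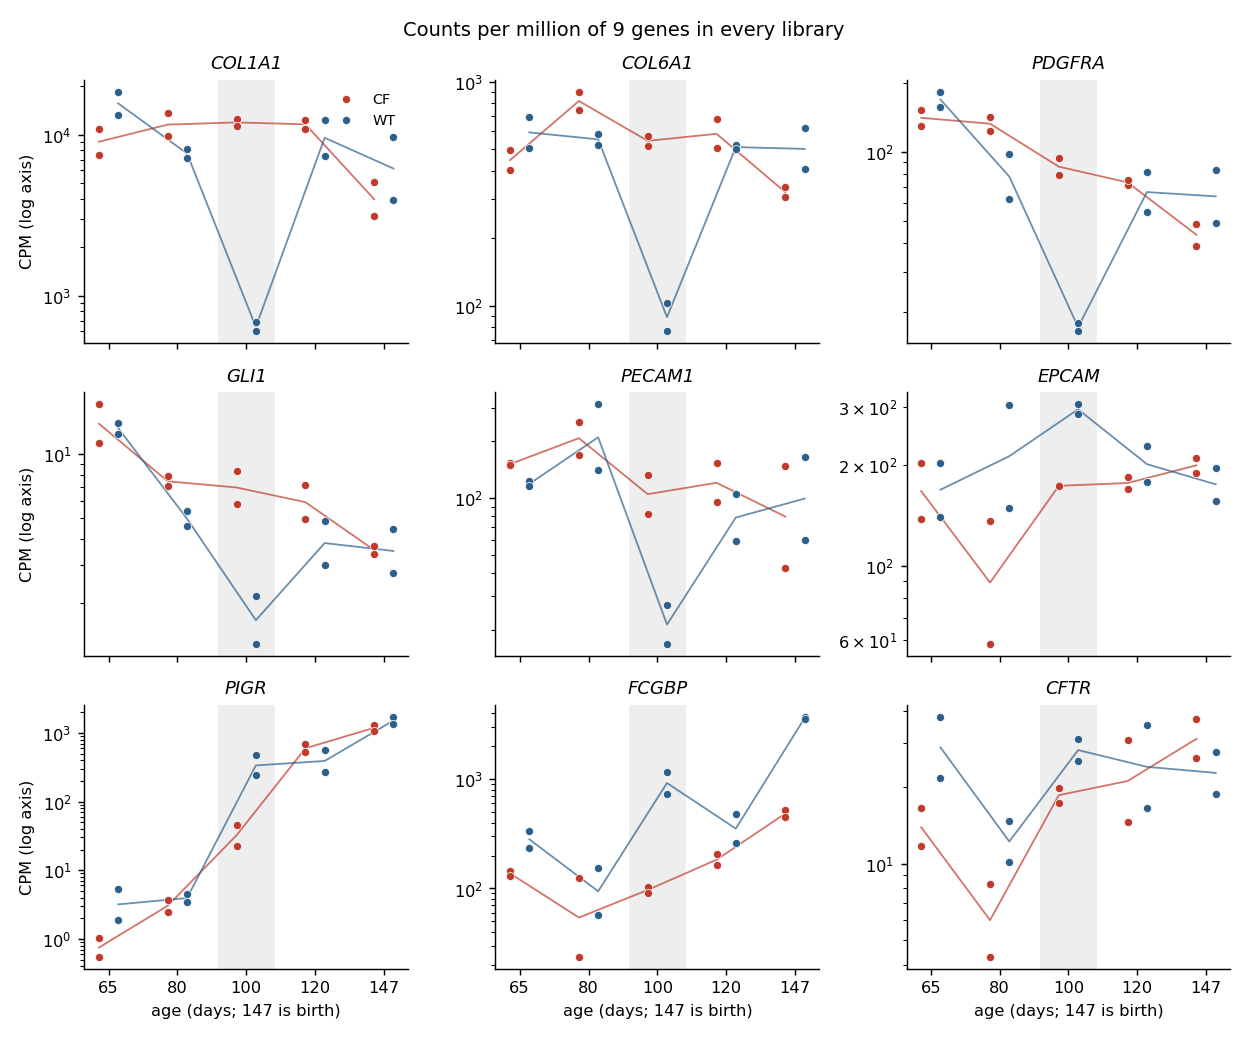
Level of 9 genes in each library (y axis, CPM on a log scale) against age in days (x axis), for CF and WT; each point is a library, the lines join the geometric means of the groups and the grey band marks day 100. COL1A1, COL6A1, PDGFRA, GLI1 and PECAM1 drop in the WT libraries of day 100 and return at day 120, while the CF libraries stay near their neighbours; PIGR and FCGBP stand higher in WT at day 100.

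Setting the day 100 libraries beside days 80 and 120 of their own genotype showed on which side these differences lay. The comparisons of this kind share the day 100 libraries with the CF against WT comparison, so their values are given side by side and are not separate evidence. WT trachea at day 100 had less fibroblast, matrix and vessel RNA than WT trachea at the neighbouring ages: 465 genes (2.31%) were lower and 67 (0.333%) higher than the mean of WT days 80 and 120 (edgeR quasi-likelihood test, adjusted p under 0.05). CF trachea at day 100 had no gene that passed against the mean of CF days 80 and 120 (edgeR, 654 genes at unadjusted p under 0.05, 1.85% of all higher and 1.41% lower, and a smallest adjusted p of 0.131; DESeq2 called 15). COL1A1 in WT was at 681 and 599 CPM at day 100, against 7183 and 8121 CPM at day 80 and 12360 and 7398 CPM at day 120. In CF it was at 12489 and 11361 CPM at day 100, against 9807 and 13587 CPM at day 80 and 10841 and 12393 CPM at day 120. Its log2 difference from the neighbours was -3.76 ± 0.51 in WT and 0.03 ± 0.41 in CF. The WT count fell to 0 with the WT pair summed (1697 at unadjusted p under 0.05), and was 2 without WT day 100 replicate 2, 72 without replicate 1, 273 and 287 without day 120 replicate 1 or 2, and 1225 without WT day 80 replicate 1.

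For the 282 genes higher in CF at day 100, the median log2 difference of WT day 100 from WT days 80 and 120 was -2.17, beside -0.11 over all genes. The median difference of CF day 100 from CF days 80 and 120 was -0.16 for these genes, beside -0.01 over all genes. COL6A1 was at -2.57 ± 0.28 in WT and -0.36 ± 0.25 in CF. PDGFRA was at -2.10 ± 0.28 in WT and -0.19 ± 0.25 in CF, and CXCL12, the chemokine that stromal cells make to retain blood cells, at -3.24 ± 0.38 in WT and -0.29 ± 0.32 in CF. In these genes the WT day 100 libraries were the ones that stood away from their neighbours. SFRP2 at day 100 stood at -2.13 ± 0.32 in WT and -0.38 ± 0.29 in CF against the neighbouring ages. Its CF over WT value at days 80 and 120 was 1.23 ± 0.23, which did not pass (BH-adjusted p of 0.317 by the edgeR quasi-likelihood test).

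**Figure D3:**
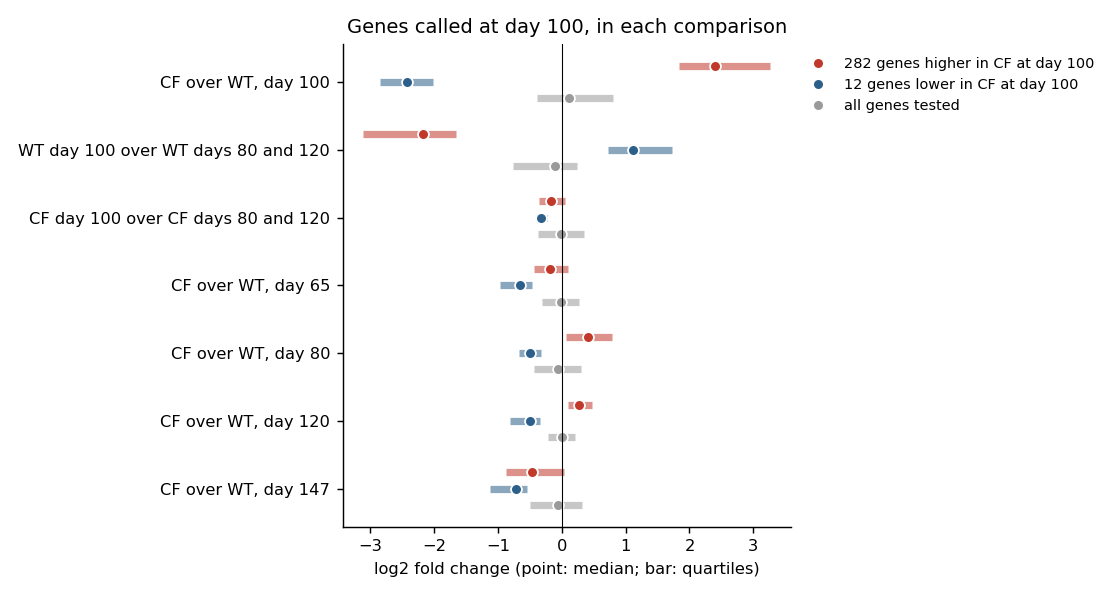
Median log2 difference (points) and quartiles (bars) of the 282 genes higher in CF at day 100, the 12 lower in CF at day 100 and all genes, in 7 comparisons (rows). The 282 genes have medians of 2.40 in CF against WT at day 100, -2.17 in WT day 100 against its neighbours and -0.16 in CF day 100 against its neighbours; the genes were taken from the first comparison, and those 3 share libraries.

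The remaining ages share no library with the day 100 comparison, although all libraries share the scaling and the estimate of the spread. At the mean of days 80 and 120, a comparison chosen after the data were seen, the 282 genes had a median log2 fold change of 0.34 for CF over WT, beside -0.03 over all genes. At unadjusted p under 0.05, 73 of the 282 were lower and 21 higher in CF at day 147, beside 4.58% and 3.34% of all genes. At day 80, 55 were higher, beside 4.88% of all genes, and at day 120, 16 were, beside 0.662%. At the mean of days 80 and 120, 63 of the 282 were higher in CF, and 3.46% of all genes were. Without the 4 libraries that held genes of other tissues the median was 0.23 and 28 of the 282 were higher. By age, the median was -0.19 (day 65), 0.41 (day 80), 0.28 (day 120) and -0.46 (day 147), so it changed sign over the ages. It ranged from 0.26 to 0.45 at days 80 and 120 with 1 library left out in turn, and the count from 36 to 88.

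The test of the difference itself asked whether CF minus WT at day 100 departed from CF minus WT at days 80 and 120. It passed for 19 genes (0.0945%), all with the larger CF excess at day 100, and for none in the other direction (edgeR, 312 genes or 1.55% at unadjusted p under 0.05; DESeq2 called 49). Of these, 16 have a symbol, and collagen and matrix genes were among them: COL1A1, COL6A1, COL14A1, C1QTNF6, and ADAMTS2 and BMP1, which trim the ends of newly made collagen. The others with a symbol were AKAP12, ANGPTL1, CXCL12, DTX1, KCNA6, LAIR1, MDGA1, PHYHIPL, PYCR1 and S1PR2. C1QTNF6, a secreted protein related to adiponectin, was at 172 and 152 CPM in CF and at 16.8 and 12.3 CPM in WT at day 100. The difference of its differences was 3.44 ± 0.50, and that of LAIR1, a collagen receptor of leukocytes, was 5.30 ± 0.82 (2.91 and 2.92 CPM in CF against 0.111 and 0.057 CPM in WT). MDGA1, a cell surface protein, and KCNA6, a potassium channel, had differences of 3.13 ± 0.51 and 3.15 ± 0.49, and COL1A1 of 3.80 ± 0.61. BMP1 and PHYHIPL share exon sequence with a neighbouring gene in the count tables, so their counts are uncertain. The count was 0 with the replicate block, with the WT pair summed and without the 4 libraries that held other tissue, and between 0 and 79 with 1 library left out, 0 without either WT or either CF library of day 100.

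Among signalling genes, a co-receptor, a signal relay and a target of Hedgehog had more RNA in CF. Of 22 Hedgehog genes tested, 5 rose in CF and none fell, with a median of 1.20. SHH, the ligand made by the epithelium, was at 0.761 and 1.08 CPM in CF and at 0.757 and 1.38 CPM in WT (-0.22 ± 0.67, not passed). GLI1, the transcription factor that Hedgehog signalling switches on, was at 5.81 and 8.33 CPM in CF and at 2.14 and 1.28 CPM in WT (2.05 ± 0.41, BH-adjusted p = 0.0293, edgeR quasi-likelihood test). GLI2, the factor that relays the signal, was at 23.3 and 23.7 CPM in CF and at 6.47 and 8.46 CPM in WT (1.65 ± 0.30). GAS1, a co-receptor that aids ligand binding, was at 8.37 and 7.57 CPM in CF and at 0.813 and 0.867 CPM in WT (3.24 ± 0.51), and SCUBE1, which helps to release the ligand, at 4.58 and 5.47 CPM in CF and at 0.554 and 0.593 CPM in WT (3.13 ± 0.69). DISP1, which exports the ligand, also rose. Against their own neighbours, GAS1 stood at -2.48 ± 0.46 in WT and -0.32 ± 0.41 in CF, and GLI1 at -1.37 ± 0.37 in WT, which did not pass, and 0.08 ± 0.34 in CF. Without the 4 libraries that held other tissue 2 Hedgehog genes passed, and GLI1 and GLI2 did not pass. None of the GLI1, GLI2 and SCUBE1 calls held in the 4 fits with 1 day 100 library left out.

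Of 41 TGF-beta, BMP and FGF genes tested, 6 rose and none fell, with a median of 0.82. The ligand TGFB3 was at 52.8 ± 7.05 CPM in CF and at 10.3 ± 2.50 CPM in WT (SD, n = 2 each; 2.36 ± 0.37), and LTBP4, which tethers latent TGF-beta to the matrix, at 336 and 302 CPM in CF and at 95.2 and 104 CPM in WT (1.68 ± 0.21). FGF7, a stromal growth factor for epithelium, was at 19.5 and 26.6 CPM in CF and at 3.92 and 4.63 CPM in WT (2.43 ± 0.39). CHRD, a secreted inhibitor of BMP, was at 9.11 and 12.4 CPM in CF and at 2.92 and 2.21 CPM in WT (2.07 ± 0.45). LTBP1 and TGFBR3 also rose. FGF10, the stromal factor for airway budding, was at 6.98 and 8.95 CPM in CF and at 0.0369 and 1.25 CPM in WT, and with WT libraries so far apart its difference of 3.60 ± 1.30 did not pass.

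Of 38 Wnt genes, 2 rose: the receptor gene FZD4, at 55.5 and 78.2 CPM in CF and at 10.6 and 7.50 CPM in WT, and DKK2, a secreted Wnt antagonist, at 14.1 and 14.8 CPM in CF and at 3.03 and 2.42 CPM in WT; FZD4 did not pass without the 4 libraries that held other tissue. Of 21 Notch genes DTX1, a ubiquitin ligase of the pathway, rose, with 28.3 and 25.6 CPM in CF and 5.74 and 7.16 CPM in WT (2.06 ± 0.27). Of 26 fetal growth and RNA-binding genes MEST, an imprinted gene of fetal tissue, rose, with 407 and 351 CPM in CF and 76.4 and 47.8 CPM in WT (2.61 ± 0.48). WT had 550 and 173 CPM at day 80 and 122 and 142 CPM at day 120, so both WT day 100 libraries lay below all 4 of its neighbours.

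Vessel genes had a median as high as that of fibroblasts, and most missed the threshold. Of 38 endothelial genes 2 rose, 33 were higher at unadjusted p under 0.05 (9.34% of all genes), and the median was 2.15. LYVE1, a hyaluronan receptor of lymphatic vessels and tissue macrophages, was at 17.4 and 14.6 CPM in CF and at 1.85 and 4.37 CPM in WT (2.36 ± 0.47, and between 1.77 without WT replicate 1 and 3.03 without WT replicate 2). GJA5, a gap junction gene of arteries, was at 14.4 and 21.1 CPM in CF and at 3.51 and 0.479 CPM in WT (3.16 ± 0.70), and its value moved to 2.26 without WT replicate 2 and to 5.11 without WT replicate 1. PECAM1, an adhesion molecule of all endothelium, was at 82.7 and 133 CPM in CF and at 27.0 and 16.7 CPM in WT, a difference of 2.30 ± 0.64 that did not pass (edgeR quasi-likelihood test, BH-adjusted p = 0.107); it shares exon sequence with MILR1. In WT, 19 endothelial genes were lower at day 100 than at the neighbouring ages, and PECAM1 was among them at -2.64 ± 0.60, beside -0.59 ± 0.54 in CF. These neighbours include WT day 80 replicate 2, which held other tissue and where the endothelial list took 0.508% of counts. The list took 0.150% in WT day 80 replicate 1, and 0.150% and 0.0721% in the WT day 120 libraries. In the WT day 100 libraries it took 0.0336% and 0.0297%. No endothelial gene passed without the 4 libraries that held other tissue (edgeR, 33 higher at unadjusted p under 0.05), and DESeq2, with all libraries, called 21 higher in CF at day 100.

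Of 29 nerve and Schwann cell genes 4 rose and 1 fell, with a median of 1.42. NGFR, the neurotrophin receptor of Schwann cells and also of airway basal cells, was at 13.8 and 15.2 CPM in CF and at 4.77 and 2.85 CPM in WT (1.93 ± 0.42). PHOX2A, a factor of autonomic neurons, had no counts in WT and was at least 9.58-fold higher in CF, taking 3 counts in the WT pair as the limit of detection, or 4.79-fold with a limit of 6 counts, since most small counts were even and may not be separate fragments (counting error only). NEFM, a neurofilament of axons, fell, with 2.01 and 1.66 CPM in CF and 11.1 and 8.31 CPM in WT (-2.40 ± 0.42); its difference from the neighbours was 0.56 ± 0.34 in WT and -1.32 ± 0.37 in CF, and neither passed.

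Of 28 macrophage and myeloid genes 3 rose, with a median of 1.10: LYVE1 and CSF1R, the receptor for the macrophage growth factor, which was at 36.1 and 30.2 CPM in CF and at 8.05 and 9.51 CPM in WT (1.91 ± 0.38), and F13A1, a clotting transglutaminase of tissue macrophages, at 18.2 and 13.4 CPM in CF and at 1.55 and 1.85 CPM in WT (3.21 ± 0.65). Of 31 cartilage genes CILP rose, with 67.8 and 61.1 CPM in CF and 10.2 and 2.35 CPM in WT (3.37 ± 0.66, and between 2.59 without WT replicate 2 and 4.68 without WT replicate 1). COL2A1, the main collagen of cartilage, did not pass: it was at 229 and 265 CPM in CF and at 59.8 and 60.4 CPM in WT (2.04 ± 0.86). SOX9, which cartilage shares with epithelium, was at 44.2 and 42.6 CPM in CF and at 53.3 and 49.4 CPM in WT.

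Smooth muscle genes differed more between the 2 WT libraries than between the genotypes. ACTA2, the smooth muscle actin, was at 330 and 315 CPM in CF and at 395 and 20.9 CPM in WT, and MYH11, the smooth muscle myosin, at 134 and 140 CPM in CF and at 222 and 8.85 CPM in WT. WT replicate 1 was above both CF libraries and WT replicate 2 far below them, although both WT libraries were low in fibroblast genes. None of 27 smooth muscle genes passed (edgeR, 3 at unadjusted p under 0.05; DESeq2 called 1), and their median of 0.37 moved to 1.92 without WT replicate 1 and to -0.37 without WT replicate 2. The list took 0.313% of counts in each CF library, against 0.354% and 0.0997% in the WT libraries, although these WT libraries carry 1 identifier.

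**Figure D4:**
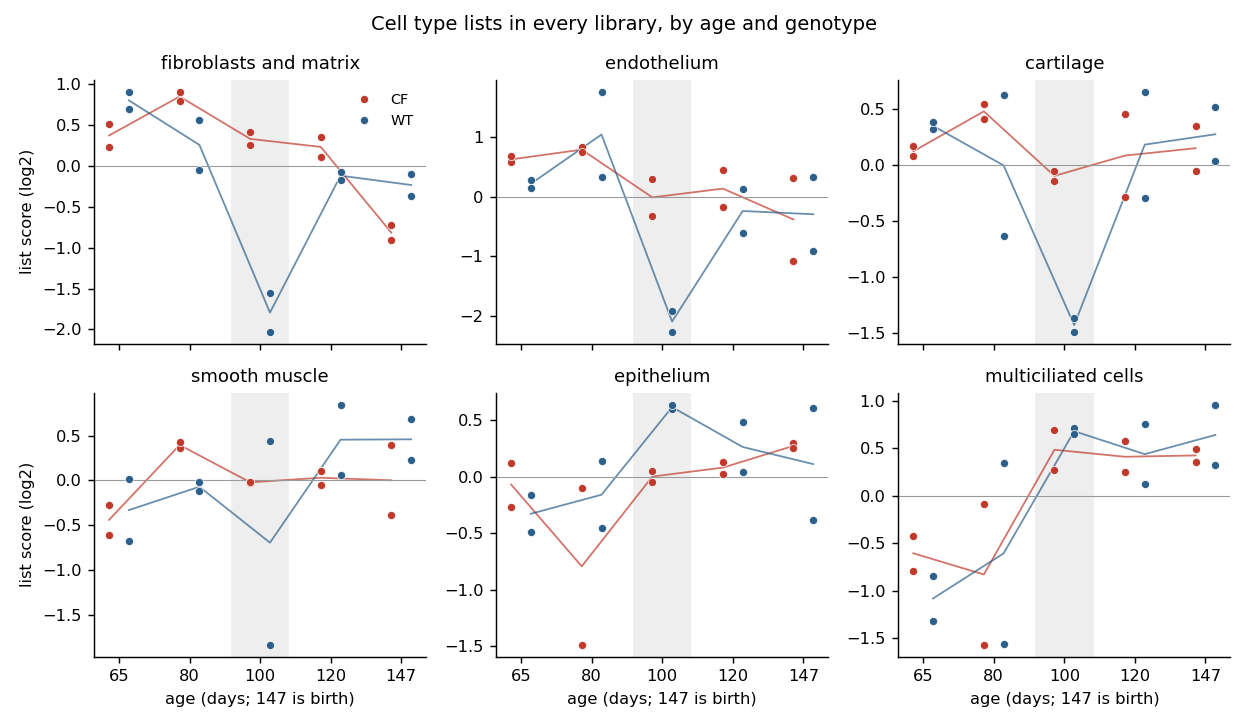
Score of 6 gene lists (y axis) against age in days (x axis). The score is the median over the list's genes of the log2 level relative to each gene's mean over all 20 libraries. Points are libraries, lines join the group means and the grey band marks day 100. The fibroblast score is 0.25 and 0.41 in the CF libraries and -1.56 and -2.03 in the WT libraries of day 100, and the smooth muscle score is -0.03 and -0.01 in CF and 0.45 and -1.84 in WT.

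The slope on gene length also differed between the groups. At the neighbouring ages WT day 80 replicate 1, WT day 120 replicate 2 and CF day 120 replicate 1 had slopes of -0.179, -0.174 and -0.145, in or below the range of WT day 100. Their fibroblast scores were 0.56, -0.07 and 0.36, against -1.56 and -2.03 in WT day 100. The ribosomal protein list, of short genes, had a median of -1.05 for CF over WT at day 100, with none of 74 passing (edgeR, 1 at unadjusted p under 0.05; DESeq2 called none), and a median of 0.09 with the slope as a covariate. The fibroblast median was 1.85 to 2.28 over all alternatives run, that covariate included. The part of the slope or of the ribosomal protein share in the differences was not tested further.

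The largest log2 fold changes among the higher genes, at a mean log2 CPM of at least 1, came from genes with few or no counts in the WT libraries. IL1RL2, a receptor for interleukin 36, had 866 counts in CF and 2 in WT, a ratio of 524 per library total with an exact 95% interval of 145 to 4337, and its CF libraries stood apart at 10.2 and 2.92 CPM. XPNPEP2, a membrane peptidase, had 323 counts in CF and 2 in WT, a ratio of 196 (53.7 to 1622). These intervals cover counting error only and take each count as a separate molecule; most small counts were even, and if reads of a pair were counted separately the intervals are too narrow. COL6A6, a further type VI collagen chain, was at 62.8 and 45.3 CPM in CF and at 0.388 and 0.468 CPM in WT (6.97 ± 1.43, BH-adjusted p = 0.0315, edgeR quasi-likelihood test). GABRA3, a GABA receptor subunit, averaged 20.5 ± 0.76 CPM in CF and 0.746 ± 0.0098 CPM in WT (4.78 ± 0.66). CNTFR, the receptor for ciliary neurotrophic factor, was at 10.5 and 12.7 CPM in CF and at 0.222 and 0.684 CPM in WT (4.65 ± 0.63, and 3.98 to 5.62 with a WT library left out).

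The other genes of largest fold were TMEM132E, RNASE9, RNASE12, LAIR1, LRRC4B, MEP1A and CD8B. RNASE12, of the ribonuclease family, was at 3.47 and 3.99 CPM in CF and at 0.0739 and 0.0912 CPM in WT (5.45 ± 0.70). TMEM132E and RNASE9 were at 0 in WT replicate 1 and at 0.205 and 0.297 CPM in WT replicate 2, so their fitted values of 6.18 and 5.74 depend on which WT library is in the fit: they were 5.20 and 4.75 without WT replicate 1, and without WT replicate 2 no WT count remained. MEP1A, a subunit of the metalloprotease meprin, was at 5.17 and 3.39 CPM in CF and at 0.0739 and 0.228 CPM in WT (4.77 ± 0.88, and between 4.12 without WT replicate 1 and 5.74 without WT replicate 2). CD8B, a co-receptor of T cells, averaged 14.4 ± 4.72 CPM in CF and 0.576 ± 0.492 CPM in WT (4.66 ± 1.00, and between 3.88 without WT replicate 2 and 5.87 without WT replicate 1). CD79B, a gene of B cells, had no counts in WT and was at least 16.3-fold higher in CF by the limit of 3 counts, or 8.16-fold by that of 6. Without the 4 libraries that held other tissue COL6A6, IL1RL2, LRRC4B, CD79B and PHOX2A did not pass. CD79B was the 1 of 27 lymphocyte genes and CD8B the 1 of 19 thymus genes tested that passed.

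Of the 12 genes lower in CF, PIGR, FCGBP and TRIM7 had the largest differences. PIGR, the receptor that carries secretory antibodies across epithelium, was at 46.1 and 22.7 CPM in CF, against 240 and 470 CPM in WT (-3.37 ± 0.59, BH-adjusted p = 0.0155, edgeR quasi-likelihood test; -3.97 without CF replicate 1 and -2.88 without WT replicate 2). PIGR lies on chromosome 12 from 3986944 to 4004957, and its level differed widely between ages. In CF it was at 2.50 and 3.70 CPM at day 80, 46.1 and 22.7 CPM at day 100 and 520 and 686 CPM at day 120. In WT it was at 3.46 and 4.48 CPM at day 80, 240 and 470 CPM at day 100 and 560 and 272 CPM at day 120. The genotypes overlapped at days 80 and 120 and not at day 100, where WT overlapped its own day 120 libraries and CF lay between its own neighbours.

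FCGBP, a mucus protein of goblet cells, was at 103 and 91.4 CPM in CF, against 727 and 1170 CPM in WT (-3.29 ± 0.68, BH-adjusted p = 0.0319, edgeR quasi-likelihood test). At the neighbouring ages it was at 23.7 and 124 CPM at day 80 and at 206 and 163 CPM at day 120 in CF, and at 154 and 57.5 CPM at day 80 and at 259 and 480 CPM at day 120 in WT. TRIM7, a ubiquitin ligase, was at 7.49 and 7.82 CPM in CF and at 73.1 and 88.7 CPM in WT (-3.40 ± 0.53). TRIM7 in WT at day 100 stood above both neighbouring ages, which held 12.2 and 8.53 CPM at day 80 and an average of 18.6 ± 3.63 CPM at day 120, and the CF libraries of days 80 to 120 lay between 7.49 and 12.4 CPM. Against their neighbours PIGR was at 3.13 ± 0.46, FCGBP at 2.26 ± 0.52 and TRIM7 at 2.54 ± 0.40 in WT day 100, all of which passed, and at -0.33 ± 0.48, -0.26 ± 0.54 and -0.33 ± 0.42 in CF day 100, none of which passed. For PIGR the WT value turned to -0.23 when day 120 alone was the neighbour (edgeR quasi-likelihood test, BH-adjusted p = 0.957).

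The other lower genes were SFTA2, NCF4, RBM46, NEFM, CREB3L4, CYTIP, SERPINB8, LYRM9 and CLDND1, of which LYRM9 did not pass without the 4 libraries that held other tissue. SFTA2, a secreted surfactant-associated protein, was at 2.15 and 1.45 CPM in CF and at 12.7 and 10.6 CPM in WT (-2.69 ± 0.55). RBM46, an RNA-binding protein known from germ cells, was at 1.19 and 1.21 CPM in CF and at 6.83 and 6.32 CPM in WT (-2.45 ± 0.42). In both genes CF was also below WT at the mean of days 80 and 120, by -1.70 ± 0.37 for SFTA2 and -1.23 ± 0.29 for RBM46, and neither passed over all genes (BH-adjusted p of 0.423 and 0.437 by the quasi-likelihood test of edgeR). CREB3L4, a membrane-bound transcription factor of the secretory pathway, was at 3.52 and 3.50 CPM in CF and at 13.9 and 16.8 CPM in WT (-2.13 ± 0.46); it shares exon sequence with SLC39A1. CLDND1, a claudin-like membrane protein, had the smallest difference, with 45.6 and 51.0 CPM in CF and 101 and 91.8 CPM in WT (-0.995 ± 0.16). Over the 12 genes the median was 1.11 for WT day 100 against its neighbours and -0.33 for CF day 100 against its neighbours. CF against WT had medians of -0.66, -0.50, -0.50 and -0.71 over these 12 genes at days 65, 80, 120 and 147, beside medians of all genes between -0.07 and 0.01.

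No member of the general epithelium list passed on the scale of all counts. The list had a median of -0.61 over 33 genes (edgeR, 2 at unadjusted p under 0.05, past which 12.3% of all genes lay; DESeq2 called none). Of the 33 genes, 23 had both CF libraries below both WT libraries and 2 had both above, beside 70.6% of all genes without overlap. A fit of the 4 day 100 libraries alone called 21 lower and 1 higher, beside 2998 lower and 2761 higher of all genes. That fit takes its spread from within these 2 pairs only, and the WT pair carries 1 identifier, so its calls may rest on technical spread. The list took 0.584% and 0.547% of counts in CF, against 0.800% and 0.853% in WT. Levels were also taken per EPCAM count. Since EPCAM was lower in CF, this scale raises the CF over WT values, so it is no check on the fibroblast difference. On it 22 of 54 fibroblast genes were higher in CF (edgeR). EPCAM itself was at -0.76 ± 0.40 on the TMM scale (edgeR quasi-likelihood test, BH-adjusted p = 0.455). Relative to EPCAM the median over all genes was 0.88, 278 genes (1.38%) were higher and 1 (0.00498%), TRIM7, was lower in CF.

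Per 100 EPCAM counts the genotypes overlapped in KRT5, FOXJ1 and CFTR and not in TP63, the transcription factor of basal cells. KRT5 had 336 and 393 counts per 100 EPCAM counts in CF and 403 and 294 in WT, and FOXJ1 had 298 and 222 in CF and 258 and 210 in WT. CFTR had 11.4 and 10.1 in CF and 8.91 and 10.2 in WT, a log2 difference of 0.17 ± 0.57. TP63 had 65.2 and 76.1 in CF and 43.3 and 42.7 in WT, a log2 difference of 0.72 ± 0.59 that did not pass. The medians relative to EPCAM were 0.17 for epithelium, 0.56 for basal cells, 0.16 for secretory and goblet cells and 0.58 for multiciliated cells, all below the median of all genes. None of 32 epithelium, 21 basal, 26 secretory or 111 multiciliated genes passed relative to EPCAM (edgeR). The spread behind this result includes the 4 libraries that held other tissue. Without these libraries far more of all genes passed on this scale, and how many were members of these lists is not reported here. At unadjusted p under 0.05, 2 epithelium, 5 basal, 2 secretory and 17 multiciliated genes were higher, beside 21.4% of all genes, and 3 secretory genes were lower, beside 0.244% of all genes. DESeq2 on the EPCAM scale called no epithelium gene, 2 basal and 4 multiciliated genes higher and 2 secretory genes lower. Over all genes it called 1729 higher and 24 lower on that scale, so the basal and multiciliated counts do not set those lists apart.

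**Figure D5:**
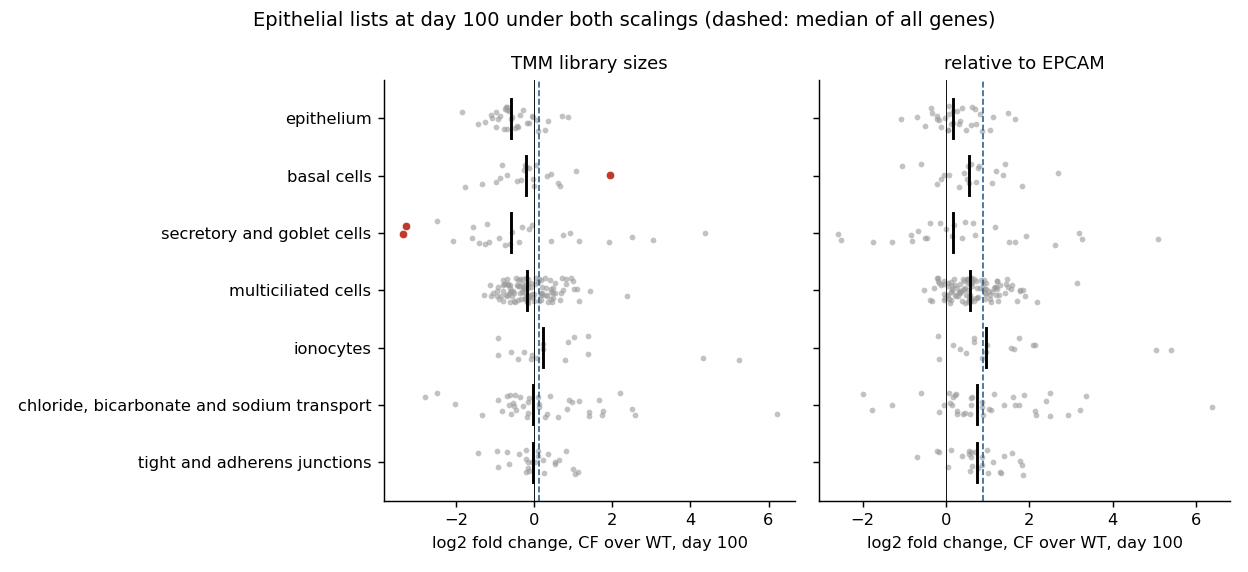
Log2 fold change of CF over WT at day 100 for the members of 7 epithelial lists (rows), on the TMM scale (left) and relative to EPCAM, with EPCAM left out (right); points are genes, black bars list medians and dashed lines the medians of all genes, 0.12 and 0.88. On both scales the medians of the epithelium and secretory lists lie left of the dashed line, and nearly all points move to the right by about the EPCAM difference.

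CDH1, another epithelial adhesion molecule, did not follow EPCAM. CDH1 was at 381 and 346 CPM in CF and at 300 and 383 CPM in WT (0.09 ± 0.44), which made 219 and 200 counts per 100 EPCAM counts in CF and 105 and 126 in WT. DSP, a desmosome protein, was at 478 and 455 CPM in CF and at 240 and 329 CPM in WT, whereas KRT19, a keratin of luminal cells, was at 655 and 692 CPM in CF and at 2559 and 2300 CPM in WT; neither passed. Scaled by CDH1 in place of EPCAM no gene passed (edgeR, 1375 at unadjusted p under 0.05), and 72 did with the geometric mean of the epithelium list as the scale. The comparison relative to EPCAM also had no gene left with any 1 of the 4 day 100 libraries left out (1832 to 2417 at unadjusted p under 0.05), and none with the WT pair summed.

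Relative to EPCAM, TRIM7 fell and PROX1 rose in CF. TRIM7 had 4.29 and 4.52 counts per 100 EPCAM counts in CF and 25.7 and 29.1 in WT, and passed (-2.64 ± 0.63, BH-adjusted p = 0.0449, edgeR quasi-likelihood test). PIGR had 26.4 and 13.1 in CF and 84.3 and 154 in WT (-2.59 ± 0.69), FCGBP 59.0 and 52.8 in CF and 255 and 384 in WT (-2.52 ± 0.68), and SPDEF, a transcription factor of goblet cells, 3.33 and 3.32 in CF and 11.1 and 11.2 in WT (-1.74 ± 0.81). These 3 did not pass relative to EPCAM, with BH-adjusted p between 0.0645 and 0.228 by the quasi-likelihood test of edgeR. PROX1, a regulator of neuroendocrine cells and lymphatic vessels, had 13.6 and 12.2 in CF and 0.863 and 1.93 in WT and passed (3.2 ± 0.76). PROX1 stands in both the neuroendocrine and the endothelial list, and 10 endothelial genes passed on this scale. Its CPM of 23.7 and 21.1 in CF and 2.46 and 5.88 in WT did not pass on the TMM scale. The mucins MUC5AC and MUC5B and the secretoglobin SCGB1A1 had at most 1.61 CPM in any of the 4 libraries, and none passed.

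Of the ENaC subunits SCNN1A was at 11.4 and 8.93 CPM in CF and at 2.70 and 7.60 CPM in WT, SCNN1B at 4.37 and 4.37 CPM in CF and at 10.6 and 11.7 CPM in WT, and SCNN1G at 3.47 and 4.37 CPM in CF and at 2.99 and 3.32 CPM in WT. None of the 3 passed, and their differences were 0.98 ± 0.91, -1.35 ± 0.95 and 0.31 ± 1.17. MKI67, a marker of dividing cells, was at 56.7 and 57.1 CPM in CF and at 16.4 and 20.8 CPM in WT, a difference of 1.61 ± 0.98 that did not pass, and the 40 cell cycle genes had a median of 0.10. EGLN3, an oxygen sensor induced by hypoxia, was at 28.3 and 38.8 CPM in CF and at 72.8 and 82.6 CPM in WT, just short of the threshold (-1.21 ± 0.28, BH-adjusted p = 0.0545, edgeR quasi-likelihood test). In WT it was above its neighbours by 1.12 ± 0.23, which passed, and in CF it was at -0.68 ± 0.25, which did not.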

How the data were processed

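The deposited tables hold raw counts per gene, made by the authors with STAR 2.6 and featureCounts 1.6.3 per the submitters' processing notes; the genome build, annotation and strand setting were not given in the sources used here. Of small counts (1 to 20), 70.7% to 85.3% were even in every library. The CF and WT tables were joined over 24478 genes; 8432 identifiers lacked a symbol and 501 were given one from RefSeq (ARS-UI_Ramb_v3.0). All 20 libraries entered 1 model with a mean for each of 10 groups (R 4.3.3, edgeR 4.0.16: low-count filter, TMM, quasi-likelihood test), with Benjamini-Hochberg (BH) adjustment over the 20097 genes tested. Contrasts were CF against WT at day 100, day 100 against the mean of days 80 and 120 within each genotype, the difference of these, and CF against WT with EPCAM counts as the library size. Scripts were tested on simulated data.

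The libraries, the 40 gene lists (1332 members, 1219 tested) and the named genes were chosen with earlier results of these data known. Named were 28 key genes (27 tested), the 12 largest fold changes in each direction among passing genes with a symbol, a mean log2 CPM of at least 1 and groups that did not overlap, up to 4 passing members of each list, and up to 6 genes per direction for the neighbour and EPCAM contrasts (5 within a genotype). COL1A2, COL6A1, DISP1, LTBP1, TGFBR3, DSP, KRT19, MX1, OAS1 and the further genes that passed the difference test fall outside this rule and were chosen after their values were seen. Replicate numbers did not pair the libraries: the deviations of CF and WT day 100 correlated at -0.0494. The alternatives were other scalings, no filter, a replicate block, the slope on gene length, the WT pair summed, left-out libraries, other neighbours and DESeq2 1.42.0. The comparison over days 80 and 120 was added after the data were seen. Some genes that passed are not reported here.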

Additional observations from a re-analysis of the deposited data

Results flagged for a closer look

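The CF minus WT difference at day 100 departed from that at days 80 and 120 for 19 genes by the test of the difference itself in edgeR. Among the named genes these were LAIR1 with a log2 difference of differences of 5.30, COL1A1 with 3.80, C1QTNF6 with 3.44, KCNA6 with 3.15, MDGA1 with 3.13 and CXCL12 with 2.95. For these 6 genes the WT day 100 libraries were below both neighbouring ages of WT, and the CF day 100 libraries did not pass against theirs. No gene passed without either WT library of day 100, which carry 1 identifier, without either CF library of day 100, or without WT day 120 replicate 1, CF day 80 replicate 1, or CF day 120 replicate 1 or 2.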

How the results depend on the processing

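The 56 named genes that passed at day 100 kept their sign in every alternative run, but 34 of them passed in none of the 4 fits with a day 100 library left out, and none passed in all 4. For CF against WT at day 100 (294 genes as reported) the count was 716 with the length slope, 0 with the WT pair summed, 5759 with the 4 day 100 libraries alone (2761 higher and 2998 lower), 1210 by DESeq2 and 0 to 92 with a library left out. WT day 100 against its neighbours (532) gave 2191, 0, 347 without the 4 libraries holding other tissue, 1147 against day 80 alone, 105 against day 120 alone, 1982 by DESeq2 and 2 to 1225 with a library left out. CF day 100 against its neighbours (0) gave 15 by DESeq2 and 0 to 4. The difference test (19) gave 181, 0 with the pair summed, 0 without the 4 libraries, 173 against all 4 other ages, 427 by DESeq2 and 0 to 79. The EPCAM scale (279) gave 752, 0, 2128 without the 4 libraries, 0 scaled by CDH1, 72 by the epithelium list, 1753 by DESeq2 and 0 with any library left out. With the replicate block, although the numbers pair nothing, the counts were 238, 383, 0, 0 and 183. PIGR in WT turned to -0.23 against day 120 alone. The cause of these shifts was not tested. The kept sign of the 56 named genes is no check. They were chosen because they passed, and every alternative uses the same day 100 libraries. Library size without TMM moved the median of all genes at day 100 to 0.32. Depth limits the genes with 0 to 3 WT counts, whose fold changes are bounds or wide intervals.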

Other observations

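No interferon response gene passed in CF day 100 against its own neighbours. The list of 25 had a median log2 difference of 0.82 from CF days 80 and 120, beside -0.01 over all genes, and 14 of the 25 were higher at unadjusted p under 0.05, as were 1.85% of all genes (edgeR). MX1, an antiviral GTPase, was at 200 and 87.5 CPM in CF and at 54.6 and 56.2 CPM in WT at day 100, and OAS1, which senses double-stranded RNA, at 190 and 87.6 CPM in CF and at 87.7 and 82.3 CPM in WT. CF replicate 1 was the highest library of the 4 in both genes, and in OAS1 CF replicate 2 lay within the WT range. No hypoxia gene passed in that contrast either; the list had a median of -0.34 from the CF neighbours over 37 genes and 8 lower at unadjusted p under 0.05, as were 1.41% of all genes.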
